A study of Mus musculus with 4 samples.

Results

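The red cell miRNAs are here a small set of microRNAs (miRNAs) made from hairpins known for their products in circulating erythrocytes: miR-451a, both arms of the miR-144 hairpin, and both arms of the paired hairpins miR-486a and miR-486b. They were taken by name from the processed values of 4 small RNA libraries of mouse aorta, where they made up 7 of 1152 listed entries. miR-486a-5p and miR-486b-5p held identical values in every library and were counted once, which left 6 distinct members. Of these, 5 passed the filter of a mean of at least 1 CPM (reads of an entry per 1000000 reads of a library), and the remaining one, miR-486b-3p, was described without a test.

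The libraries came from aortas of wild type C57BL/6 mice, an inbred laboratory strain, aged 12 weeks, in a study of vascular calcification in chronic kidney disease (CKD). Of the 4 libraries, 2 were labelled Sham and 2 CKD, and each was made from RNA of 4 pooled samples. The CKD model removes kidney tissue in operations 1 week apart and then gives a diet with 2% phosphate and drinking water with 0.45% NaCl for 4 weeks. The labels carry this same text for the Sham libraries, so what the Sham mice received is unknown from the sources used here. Whether the aortas were flushed of blood is likewise not stated. Nothing states that the libraries of a group came from separate mice, so p-values speak for the spread between these libraries alone, and that spread may be technical. Recovered totals lay between 16658810 and 17532748 reads per library. miR-143-3p, the leading smooth muscle miRNA, took 79.8% of reads in Sham 1, 72.5% in Sham 2, 41.1% in CKD 1 and 40.8% in CKD 2. All other entries share the rest of the total.

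As background, red cells lose their nucleus but keep a stock of miRNAs made during erythroid maturation. miR-451a and miR-144 are cut from a single primary transcript that the erythroid factor GATA1 switches on, and miR-451a is the best known miRNA of red cells. It is made without Dicer: Argonaute 2 cuts its short hairpin directly. miR-486-5p is made from an intron of the ankyrin gene Ank1, whose product anchors the red cell membrane skeleton, and it is also made in skeletal and cardiac muscle. In a bulk tissue library these miRNAs serve as a measure of the blood left in the vessel, and fewer red cells cannot be told apart from less miRNA per red cell.

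In the RefSeq table of mature miRNAs, build GRCm38.p6, 3 of the 7 members were found. They are printed 5′ to 3′ with the seed, bases 2 to 8, in capitals, because the seed sets which messages a miRNA pairs with and these 3 members have different seeds. miR-101a-3p is added as the one other miRNA of the table that shares bases 2 to 7 with miR-144-3p.
miR-451a: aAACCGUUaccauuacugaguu
miR-144-3p: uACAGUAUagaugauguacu
miR-144-5p: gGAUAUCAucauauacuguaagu
miR-101a-3p: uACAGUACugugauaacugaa
No other mature miRNA of that table had the same bases 2 to 8 as miR-451a, miR-144-3p or miR-144-5p. miR-101a-3p, a widely expressed miRNA, lay at 937 and 1185 CPM across the Sham pair against 2002 and 1807 CPM across the CKD pair, far above miR-144-3p in each of them. The ratio of miR-144-3p to miR-101a-3p ran from 0.00670 in Sham 1 to 0.0348 in CKD 2.

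The hairpins of the shared transcript show how differently their miRNAs are cut, with the mature bases in capitals.
Mir451a: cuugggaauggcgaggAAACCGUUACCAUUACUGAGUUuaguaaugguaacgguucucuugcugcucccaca
Mir144: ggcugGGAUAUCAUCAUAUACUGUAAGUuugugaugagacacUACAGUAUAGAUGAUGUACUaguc
In the predicted fold of the 72-base Mir451a hairpin, miR-451a filled bases 17 to 38 and took in all 4 bases of the terminal loop. The Mir144 hairpin has 66 bases, and its arms, at bases 6 to 28 and 43 to 62, lay on either side of a predicted loop at bases 31 to 36. Mir144 lies on the plus strand of chromosome 11 at chr11:78073005-78073070 and Mir451a at chr11:78073170-78073241, with 99 bases between them. In the GENCODE M21 annotation neither hairpin overlaps a protein-coding gene, and Mir451a overlaps Mir451b on the opposite strand. Mir486, the hairpin of miR-486a, lies on the plus strand at chr8:23142555-23142682 in an intron of Ank1, opposite Mir3107 on the minus strand.

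Red cell miRNAs were a small share of every aorta library, and that share differed widely between libraries, within groups as well as between them. The members summed to 220 CPM in Sham 1, 843 CPM in Sham 2, 1039 CPM in CKD 1 and 4806 CPM in CKD 2. As shares of reads these were 0.0220% (Wilson 95% interval 0.0214% to 0.0227%), 0.0843% (0.0829% to 0.0857%), 0.104% (0.102% to 0.105%) and 0.481% (0.477% to 0.484%). Such intervals cover counting error only, and none of them overlapped. CKD 2 held the most red cell miRNA and Sham 1 the least, a 21.8-fold span. Both CKD libraries lay above both Sham libraries, with a log2 difference of 2.37 and a pooled SD of 1.47. After the TMM scaling described further on, which centres the bulk of the miRNAs, the difference was 0.79 and the groups overlapped, with 460 CPM in Sham 1, 1212 in Sham 2, 574 in CKD 1 and 2895 in CKD 2. The deposited values of Sham 2 and CKD 1 stood close together although they belong to different groups. Among reads other than miR-143-3p, the shares were 0.109%, 0.307%, 0.176% and 0.812% in the same order, so that Sham 2 then lay above CKD 1.

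**Figure D1:**
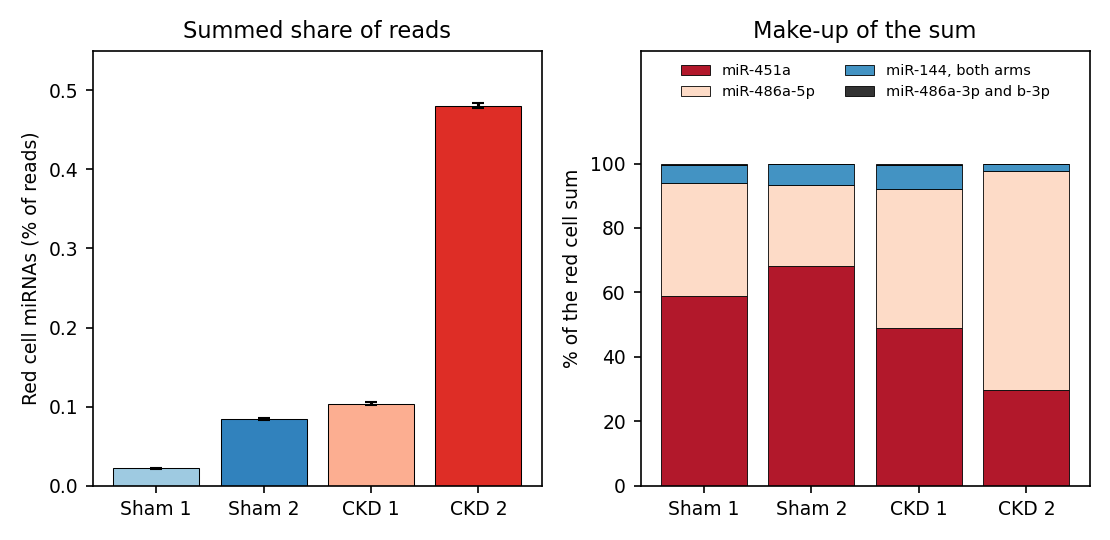
Left, the summed red cell miRNAs as a percent of reads in each of the 4 libraries, with Wilson 95% intervals; right, the percent of that sum held by each member. CKD 2 stands at 0.481% against 0.104% or less in the other libraries, and miR-486a-5p fills 68.0% of its sum.

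The make-up of the sum was not the same in every library. miR-451a held 58.9% of it in Sham 1, 68.1% in Sham 2 and 49.1% in CKD 1, but 29.7% in CKD 2. miR-486a-5p held 34.9%, 25.1%, 42.9% and 68.0%. The miR-144 arms together held 5.75%, 6.47%, 7.70% and 2.34%, and the 3p arms of miR-486 at most 0.413%. The high sum of CKD 2 was thus mostly miR-486a-5p.

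miR-451a, the main red cell miRNA, had 130 CPM (Sham 1), 574 CPM (Sham 2), 510 CPM (CKD 1) and 1425 CPM (CKD 2). The groups overlapped, since Sham 2 lay above CKD 1, and the libraries within a group differed 4.42-fold in Sham and 2.79-fold in CKD. It ranked between 50 and 70 among the entries of the 4 libraries. Its group means were 352 ± 314 CPM in Sham and 968 ± 647 CPM in CKD (SD, n = 2). The log2 difference, CKD minus Sham on the log2(CPM + 1) scale, was 1.64 (SE 0.67, limma adjusted p = 0.038). That call was lost on leaving out Sham 1 (0.57), CKD 1 (2.38) or CKD 2 (0.90), where the limma adjusted p became 0.51, 0.069 and 0.34.

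miR-144-3p, the guide strand of the miR-144 hairpin, represses NRF2 and other stress-response messages in erythroid cells. It had 6.28 CPM in Sham 1, 24.1 in Sham 2, 52.9 in CKD 1 and 62.8 in CKD 2, so both CKD libraries lay above both Sham libraries. Its log2 difference was 2.12 (SE 0.50, limma adjusted p = 0.0032), a call lost without CKD 1 (2.24, limma adjusted p = 0.061). Without Sham 1 the difference was 1.22 (limma adjusted p = 0.030). miR-144-5p, the opposite arm, had 6.39 and 30.5 CPM across the Sham pair against 27.2 and 49.5 CPM across the CKD pair. Its groups overlapped in the same way as those of miR-451a, with Sham 2 above CKD 1. The log2 difference was 1.31 (SE 0.57, limma adjusted p = 0.049), and it missed the threshold on leaving out Sham 1 (0.26), CKD 1 (1.73) or CKD 2 (0.88), with limma adjusted p of 0.62, 0.11 and 0.26.

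miR-486a-5p, the guide strand of the miR-486a hairpin, had 76.9 CPM (Sham 1), 212 CPM (Sham 2), 445 CPM (CKD 1) and 3266 CPM (CKD 2). These values also stand for miR-486b-5p, whose reads could not be told apart from it. The groups did not overlap, but CKD 2 lay 7.33-fold above CKD 1, against 2.75-fold between the Sham libraries. Its rank rose from 82 in Sham 1 to 39 in CKD 2. Group means were 144 ± 95.2 CPM in Sham and 1856 ± 1995 CPM in CKD (SD, n = 2), so the CKD spread exceeded the CKD mean. The log2 difference was 3.23 (SE 0.77, limma adjusted p = 0.0033), and it was 1.79 without CKD 2 (limma adjusted p = 0.074). It also missed the threshold without Sham 1 (2.51, limma adjusted p = 0.17) or Sham 2 (3.95, limma adjusted p = 0.060), and kept it without CKD 1 at 4.67.

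The passenger arms of miR-486 were near the lower end of what was counted and did not follow the 5p arm. miR-486a-3p had 13 reads in Sham 1, 21 in Sham 2, 57 in CKD 1 and 33 in CKD 2, or 0.740, 1.24, 3.25 and 1.98 CPM. CKD 1 was its highest library, whereas CKD 2 was the highest for the 5p arm. It passed the filter only through CKD, with a mean of 0.990 CPM in Sham and 2.62 CPM in CKD, so its call is no support for a difference. Its log2 difference was 0.85 (SE 0.33, limma adjusted p = 0.033), and the call was lost on leaving out Sham 1 (0.67), Sham 2 (1.03) or CKD 1 (0.59), with limma adjusted p of 0.17, 0.067 and 0.081. miR-486b-3p had 3 reads in Sham 1, 21 in Sham 2, 4 in CKD 1 and 2 in CKD 2. Only Sham 2 stood above the rest, at 1.24 CPM with a Wilson 95% interval of 0.814 to 1.90 CPM. Its log2 difference of -0.46 came to 0.00 without Sham 2.

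**Figure D2:**
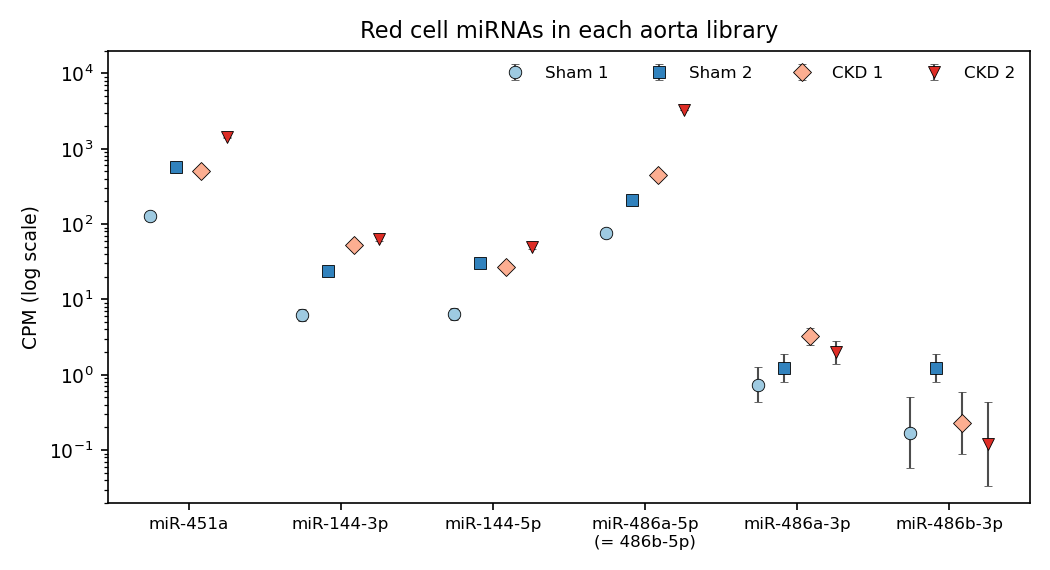
CPM on a log axis for the 6 distinct red cell miRNAs, with 1 point per library and Wilson 95% intervals. Sham 2 lies above CKD 1 for miR-451a and miR-144-5p, and CKD 2 reaches 3266 CPM for miR-486a-5p.

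On the deposited scale, all 5 tested members were called higher in CKD, miR-486a-3p after passing the filter only through CKD, but so was most of the aortic miRNA pool. Of the 479 tested entries, 82.9% rose by the same limma test, with a median log2 difference of 1.34, a 2.53-fold shift. The median of the 5 members was 1.64, and 3 of them lay above the median of all. For 3 of the 5 members both CKD libraries exceeded both Sham libraries, against 91.2% of all tested entries. miR-486a-5p with its duplicate shared ranks 6 and 7 among the 479 by log2 difference, miR-144-3p was at 32, miR-451a at 142, miR-144-5p at 252 and miR-486a-3p at 388. With edgeR on the recovered reads, scaled by library totals alone, the quasi-likelihood test called 3 of the 5 higher (miR-144-3p, miR-486a-5p and miR-486a-3p), beside 77% of all tested entries. Without the filter on low values limma called none of the 6 distinct members, beside 26.6% of the 1152 entries called higher, and 3 of them had an unadjusted p below 0.05, beside 43.1% of all entries. Since the values of a library sum to a fixed total, less miR-143-3p and more of the rest cannot be told apart on this scale.

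After trimmed-mean (TMM) scaling, none of the 5 members was called by limma, at adjusted or unadjusted p, beside 7.72% and 25.9% of all tested entries. miR-451a then lay at 0.06 (SE 0.77), miR-144-3p at 0.61 (SE 0.48) and miR-486a-5p at 1.65 (SE 1.06), with limma adjusted p of 0.97, 0.44 and 0.37. The sign turned for miR-144-5p, at -0.19 (SE 0.65), and for miR-486a-3p, at -0.10 (SE 0.22). The median of the 5 members was 0.06 and that of all tested entries 0.00. No member kept both CKD libraries above both Sham libraries on this scale, against 28% of all tested entries. edgeR's quasi-likelihood test with TMM factors and DESeq2 also called none, at adjusted or unadjusted p, although DESeq2 gave miR-486a-3p no adjusted p. Of all tested entries, edgeR called 6.47% at adjusted and 24.4% at unadjusted p, and DESeq2 16.1% and 25.3%. Without CKD 2, the TMM-scaled difference of miR-486a-5p was 0.16.

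**Figure D3:**
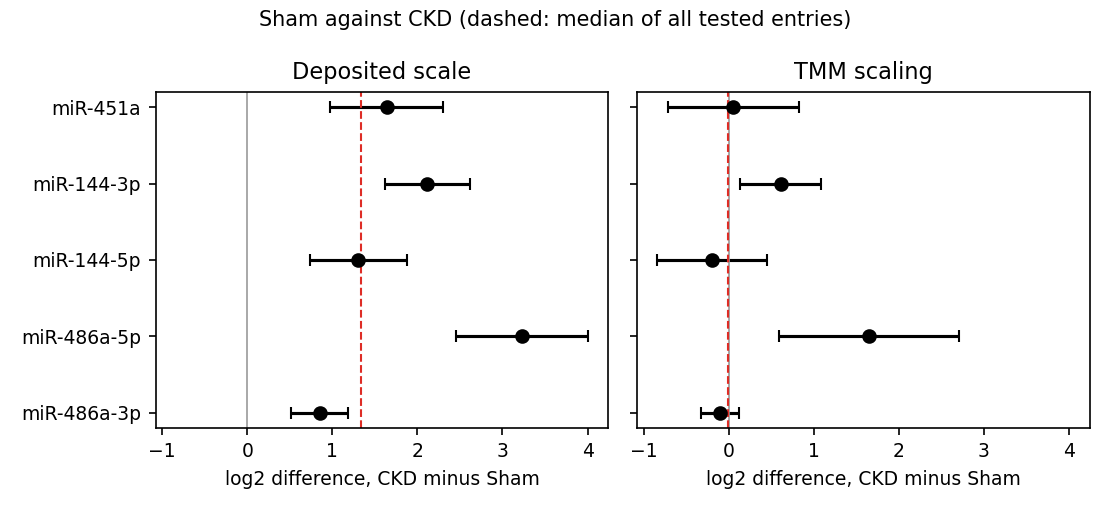
Log2 difference, CKD minus Sham, with its standard error for the 5 tested members, on the deposited scale (left) and after TMM scaling (right); the dashed line is the median of all 479 tested entries. On the left the median stands at 1.34 and all members lie above 0; on the right the members lie between -0.19 and 1.65.

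Ratios within a library do not depend on how the library was scaled. With 2 libraries per group, an exact two-sided permutation test cannot go below p = 0.333, so they are given as values. The ratio of miR-486a-5p to miR-451a was 0.592 in Sham 1, 0.368 in Sham 2, 0.873 in CKD 1 and 2.29 in CKD 2. Both CKD libraries lay above both Sham libraries, and the log2 difference was 1.60 with a pooled SD of 0.78. It was 0.90 without CKD 2, and CKD 2 was the only library in which miR-486a-5p outnumbered miR-451a.

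The products of the shared miR-144 and miR-451a transcript kept closer together than miR-486a-5p and miR-451a did. Their ratios to miR-451a spanned 1.53-fold (miR-144-5p) and 2.47-fold (miR-144-3p), against 6.22-fold for miR-486a-5p. Such closeness was not particular to the shared transcript, since the ratio of miR-486a-5p to miR-92a-3p, taken up further on, spanned 1.50-fold. The ratio of miR-144-5p to miR-451a was 0.0492, 0.0530 and 0.0532 in Sham 1, Sham 2 and CKD 1, and 0.0347 in CKD 2. For miR-144-3p to miR-451a the ratio was 0.0483 in Sham 1, 0.0420 in Sham 2, 0.104 in CKD 1 and 0.0441 in CKD 2, so CKD 1 alone stood apart. The log2 difference of that ratio was 0.59, and it was -0.03 without CKD 1, 0.69 without Sham 1, 0.48 without Sham 2 and 1.20 without CKD 2. The arms of miR-144 shifted against each other: miR-144-3p stood at 0.983 and 0.792 of miR-144-5p in Sham, and at 1.95 and 1.27 in CKD. Both CKD ratios thus lay above both Sham ratios, with a log2 difference of 0.83 and a pooled SD of 0.35.

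Against miR-126a-3p, the main endothelial miRNA and one also carried by platelets, the order of the libraries did not follow the groups. The ratio of miR-451a to miR-126a-3p was 0.0588 in Sham 1 and 0.0679 in CKD 1, and 0.219 in Sham 2 and 0.191 in CKD 2. The lower pair and the higher pair each held 1 library of both groups, and the log2 difference between groups was 0.01 with a pooled SD of 1.21. For miR-486a-5p the ratio was 0.0348 in Sham 1, 0.0806 in Sham 2, 0.0593 in CKD 1 and 0.438 in CKD 2. The summed red cell miRNAs stood at 0.0998 of miR-126a-3p in Sham 1, 0.321 in Sham 2, 0.138 in CKD 1 and 0.644 in CKD 2, a log2 difference of 0.74 with a pooled SD of 1.39. That value was -0.10 without Sham 1, 1.58 without Sham 2, 1.85 without CKD 1 and -0.37 without CKD 2.

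**Figure D4:**
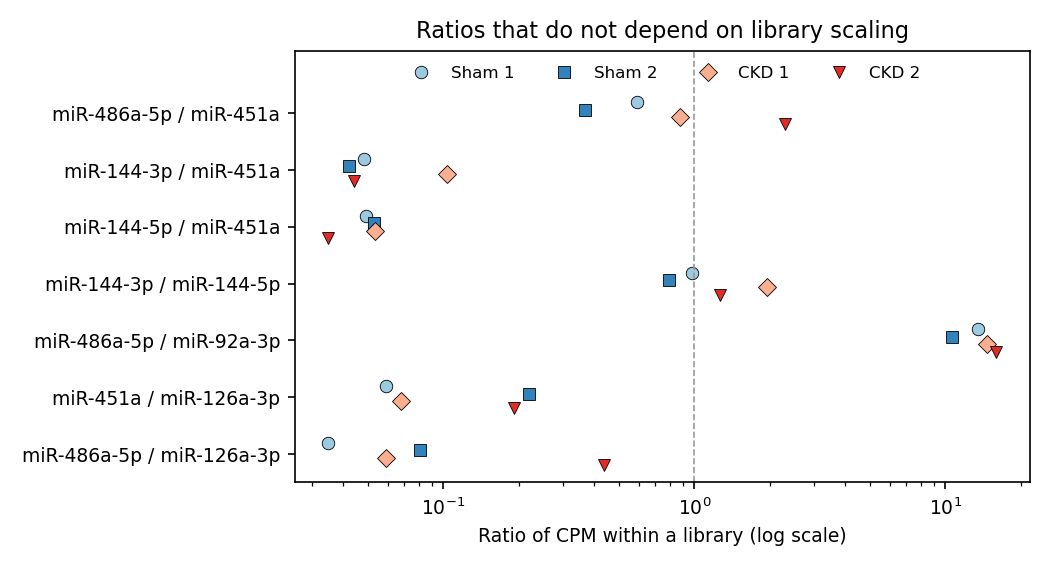
Ratios of CPM within each library on a log axis, 1 point per library. The ratio of miR-451a to miR-126a-3p pairs Sham 1 with CKD 1 near 0.06 and Sham 2 with CKD 2 near 0.2, while miR-486a-5p to miR-92a-3p stays between 10.7 and 16.0.

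In Sham, library 2 held more of each of the 6 distinct members than library 1, and in CKD of 4 of the 6. Of the 479 tested entries, 432 were higher in Sham 2 than in Sham 1, and 156 were higher in CKD 2 than in CKD 1. On the log2(CPM + 1) scale Sham 2 exceeded Sham 1 by 2.14 for miR-451a, 2.09 for miR-144-5p, 1.79 for miR-144-3p and 1.45 for miR-486a-5p, against a median of 0.44 over all tested entries. miR-451a had the third largest such gap of the 479. CKD 2 exceeded CKD 1 by 2.87 for miR-486a-5p, 1.48 for miR-451a, 0.84 for miR-144-5p and 0.24 for miR-144-3p, against a median of -0.14. In CKD the 3p arms of miR-486 were the exceptions. miR-486a-3p stood at 0.36 in Sham and -0.51 in CKD, and miR-486b-3p had 4 reads in CKD 1 against 2 in CKD 2.

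Other miRNAs that are abundant in red cells were read beside the members, from a list of 9 of which 8 were in the files. Of these 8, 7 rose before rescaling (median 1.79), and none was called by limma after TMM scaling (median 0.59), beside 82.9% and 7.72% of all tested entries. Their sum was 757 CPM in Sham 1, 1259 in Sham 2, 2977 in CKD 1 and 3403 in CKD 2. The most abundant were miR-16-5p, a proliferation brake found in most tissues, miR-25-3p and miR-15a-5p. miR-16-5p had 609 and 981 CPM across the Sham pair against 2359 and 2527 CPM across the CKD pair, and miR-25-3p 94.6, 167, 373 and 435 CPM in the same order. For miR-16-5p, Sham 2 stood 1.61-fold above Sham 1 and CKD 2 1.07-fold above CKD 1, against 4.42- and 2.79-fold for miR-451a. All 8 were higher in Sham 2 than in Sham 1, beside 432 of the 479 tested entries, and 7 were higher in CKD 2 than in CKD 1, beside 156. The exception in CKD was miR-15a-5p (0.918-fold). Within CKD, only miR-92a-3p and miR-363-3p of the list had larger gaps than miR-451a. miR-92a-3p stood 3.48-fold higher in Sham 2 and 6.71-fold higher in CKD 2, and miR-363-3p, at 14.7 CPM or less, 8.79- and 17.1-fold. The ratio of miR-451a to miR-16-5p was 0.213 and 0.216 in Sham 1 and CKD 1, and 0.585 and 0.564 in Sham 2 and CKD 2.

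Likeness of pattern was measured as the root mean square difference of log2(CPM + 1) over the 4 libraries, after taking each miRNA's own mean away, among 260 entries with a mean of at least 10 CPM. miR-92a-3p, a member of the miR-17 cluster and its paralogs, was by far the nearest to miR-486a-5p, at 0.25 against a median of 1.42 for all candidates. It had 5.71 CPM (Sham 1), 19.9 CPM (Sham 2), 30.5 CPM (CKD 1) and 205 CPM (CKD 2), and miR-486a-5p stood at 13.5, 10.7, 14.6 and 16.0 times its level. The next were miR-15b-5p (0.75), miR-338-3p (0.91), miR-182-5p (0.96) and the unannotated Novel_38 (1.01), while miR-451a itself lay at 0.97. Nearest to miR-451a were miR-142a-5p, a leukocyte miRNA, at 0.52, and then miR-15b-5p (0.54), miR-182-5p (0.56), miR-19a-3p (0.56) and miR-338-3p (0.61), against a median of 0.84. The members miR-144-5p (0.28) and miR-144-3p (0.51) were nearer still, and miR-486a-5p was farther off at 0.97.

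Markers of other blood and tissue cells did not share 1 pattern with the red cell miRNAs. Leukocyte miRNAs, all 9 of the list detected in each library, summed to 270 CPM in Sham 1, 522 in Sham 2, 984 in CKD 1 and 1188 in CKD 2. The order of libraries was that of the summed red cell miRNAs, but 91.2% of all tested entries also had both CKD libraries above both Sham libraries. Of the 9 leukocyte miRNAs, 8 rose on the deposited scale and none was called after TMM scaling by limma, beside 82.9% and 7.72% of all tested entries. All 9 were higher in Sham 2 than in Sham 1, beside 432 of the 479 tested entries. Of the 9, 7 were higher in CKD 2 than in CKD 1, beside 156 of the 479 tested entries. The most abundant were miR-146a-5p, miR-142a-5p and miR-223-3p. miR-142a-5p, shared by all blood leukocytes, had 24.1 and 90.1 CPM across the Sham pair against 148 and 150 CPM across the CKD pair. Between the CKD libraries miR-223-3p went from 147 to 195 CPM, miR-155-5p from 15.2 to 28.0 and miR-511-3p from 16.5 to 24.6, while miR-150-5p went from 96.1 to 70.5.

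Striated muscle, the other known source of miR-486, was read from 8 miRNAs, of which 5 were tested. Their sum was 547 CPM (Sham 1), 672 CPM (Sham 2), 1332 CPM (CKD 1) and 1059 CPM (CKD 2), mostly from miR-133. Which cells of the aorta carried that miR-133 was not tested, so the sum is no measure of striated muscle alone. miR-133a-3p, the most abundant, had 500 CPM in Sham 1, 609 in Sham 2, 1189 in CKD 1 and 951 in CKD 2, followed by miR-133b-3p and miR-133a-5p. The defining skeletal muscle miRNA, miR-206-3p, was at 0.300 CPM or less in every library and at 0 in Sham 2. The cardiac miR-208b-3p was also at 0.300 CPM or less in every library, but above 0 throughout. The cardiac miR-208a-3p had 0.680, 0.360, 1.37 and 1.20 CPM from Sham 1 to CKD 2, and miR-499-5p, a miRNA of slow and cardiac muscle, 0.630, 1.78, 1.37 and 3.6 CPM. miR-1a-3p, found in all striated muscle, had 7.76, 10.7, 12.2 and 16.6 CPM. Of the 8, 4 were higher in CKD 2 than in CKD 1, beside 156 of the 479 tested entries. Of these 4, only miR-1a-3p and miR-499-5p were tested, and the tested miR-133 entries were lower in CKD 2. The rest of the 4, miR-206-3p and miR-208b-3p, went from 0.230 to 0.300 and from 0.110 to 0.300 CPM. Those values rest on a few reads and were not tested. On the deposited scale 3 of the 5 rose, and none was called after TMM scaling by limma, beside 82.9% and 7.72% of all tested entries.

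Liver and plasma miRNAs were higher in Sham 2 than in Sham 1 and lower in CKD 2 than in CKD 1, as most tested entries were. Of the 479 tested entries, 432 were higher in Sham 2 than in Sham 1, and 156 were higher in CKD 2 than in CKD 1. The summed liver and plasma miRNAs stood at 98.5 and 164 CPM in Sham, and at 673 in CKD 1 against 451 CPM in CKD 2. All 3 tested members of the list of 4, miR-194-5p, miR-192-5p and miR-122-5p, rose on the deposited scale and none was called after TMM scaling by limma, again beside 82.9% and 7.72% of all tested entries. The hepatocyte miRNA miR-122-5p stood at 1.43 CPM in Sham 1, 25.5 in Sham 2, 161 in CKD 1 and 56.0 in CKD 2. Both arms of miR-126a rose on the deposited scale and neither was called after TMM scaling, and their sum was 2899 and 3411 CPM across the Sham pair against 9989 and 9767 CPM across the CKD pair. Of the 4 smooth muscle entries, led by miR-143-3p, miR-145a-5p and miR-145a-3p, 2 rose and 1 fell on the deposited scale, and 2 fell after TMM scaling. Beside both lists, 82.9% of all tested entries rose on the deposited scale, and 7.72% were called in either direction after TMM scaling. Of the 479 tested entries, limma called 5 lower on the deposited scale and 28 lower after TMM scaling. The part that residual blood has in any of these differences was not tested.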

How the data were processed

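Small RNA of 18 to 30 nucleotides from 4 aorta libraries was read from the deposited tables. Per the submitters' processing notes, Bowtie and GRCm38 were used, while the sources used here do not name the miRNA annotation or the counting. Each deposited column sums to about 1000000 with 2 decimals, so the authors' values were read as CPM. In 3 of the 4 files the authors deposited names above values in a single column (unit other), and they were paired by position. Every value above 0 (100%) matched a whole number of reads within 0.005 CPM, which gave the read totals, where 3 reads are 0.171 to 0.180 CPM. Totals cover listed entries only.

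limma 3.58.1 with a variance trend was fitted to log2(CPM + 1) of 479 entries whose mean reached 1 CPM, with group as the only term, on 2 residual degrees of freedom plus those limma borrows across entries, with Benjamini-Hochberg adjustment over all tested entries at 0.05. Differences on this scale understate changes of low entries. Alternatives were TMM (factors 0.479 and 0.696 in Sham, 1.81 and 1.66 in CKD) and median-of-ratios scaling, totals without miR-143-3p, other filters and pseudocounts, no trend, edgeR 4.0.16, DESeq2 1.42.0, the replicate number as a block and leaving out each library. TMM together with the block or with a library left out was added after seeing the data. limma after TMM scaling, edgeR with TMM factors and DESeq2 were tested on simulated counts. These counts had rises and falls in equal number and a fixed spread between libraries. That check thus does not cover data in which most entries moved in the same direction. Hairpins were folded with RNAfold of ViennaRNA 2.7.2. miRNAs named were all members, the 3 most abundant of each list, and the 5 nearest in pattern to miR-451a and miR-486a-5p; miR-101a-3p, further miRNAs of the lists and those in the other observations were chosen after their values were seen. Members and lists were chosen with earlier results of these data known.

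No libraries were merged, since the counts within a group differed beyond sampling noise (chi-square of 515 and 367 per degree of freedom in Sham and CKD).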

Additional observations from a re-analysis of the deposited data

How the results depend on the processing

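Settings that centre the bulk of miRNAs took the calls away from the red cell miRNAs, and the cause was not tested beyond that. In the order miR-451a, miR-144-3p, miR-144-5p, miR-486a-5p and miR-486a-3p, the log2 differences were 0.056, 0.61, -0.19, 1.65 and -0.10 with TMM scaling, with or without the replicate block, and 0.11, 0.66, -0.14, 1.70 and -0.072 with median-of-ratios scaling. They were 0.32, 0.86, 0.056, 1.91 and 0.057 with totals that leave out miR-143-3p, 0.056, 0.48, -0.36, 2.25 and -0.16 with edgeR and TMM factors, and 0.090, 0.52, -0.32, 2.29 and -0.13 with DESeq2. The count of called entries, 402 of 479 tested on the deposited scale, was 37, 33, 28, 31 and 77 in these settings. With a filter of a mean CPM of 10, fewer entries were tested, and 241 of 265 were called, 237 of them higher. All 4 members tested there kept their calls. The summed members lay at 0.79 with TMM and 0.84 with median-of-ratios scaling, against 2.37.

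Without a filter all 5 kept their differences (1.64, 2.12, 1.31, 3.23 and 0.85) and lost the call (limma adjusted p from 0.089 to 0.31). With edgeR on library totals miR-451a (1.46, edgeR adjusted p = 0.098) and miR-144-5p (1.06, edgeR adjusted p = 0.17) missed the threshold. miR-144-5p also missed it with a pseudocount of 0.1 (1.38, limma adjusted p = 0.062) and with no variance trend (1.31, limma adjusted p = 0.061). miR-486b-3p moved to -1.16 with a pseudocount of 0.1.

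Leaving out each library gave 137 to 384 calls on the deposited scale (137 without CKD 1, 247 without CKD 2) and 0 to 7 with TMM scaling. The limma counts of 0, without CKD 1 and without CKD 2, stood beside 92 and 109 entries at an unadjusted p below 0.05. The differences ran from 0.57 to 2.71 for miR-451a, 1.22 to 3.01 for miR-144-3p, 0.26 to 2.35 for miR-144-5p, 1.79 to 4.67 for miR-486a-5p and 0.59 to 1.11 for miR-486a-3p, and with TMM scaling from -0.77 to 0.86, -0.079 to 1.29, -1.04 to 0.64, 0.16 to 3.14 and -0.26 to 0.071. The lone library of a group is then assumed to vary like the others. The summed members ran from 1.27 to 3.48.

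The replicate numbers pair no libraries by the labels, and the deviations of same-numbered libraries correlated at r = 0.10 over 479 entries. With the replicate block, 352 entries were called, or 10 with TMM scaling, and of the members only miR-486a-3p lost its call (0.85, limma adjusted p = 0.082).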

Other observations

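In Sham 2 the arms miR-486a-3p and miR-486b-3p had 21 reads each, while the other libraries held 13, 57 and 33 reads of the first and 3, 4 and 2 of the second. miR-363-3p, which lies in a paralog of the miR-17 cluster, stood at 0.290 CPM in Sham 1, 2.55 in Sham 2, 0.860 in CKD 1 and 14.7 in CKD 2, and did not pass the threshold (log2 difference 1.34, limma adjusted p = 0.12). miR-142a-3p, a leukocyte miRNA, stood at 10.4, 33.5, 18.5 and 30.4 CPM in the same order, with the higher value in library 2 of each group.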
